A study of Mus musculus with 2 samples.

Results

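The 7 genes described here encode transcription factors that act around the circadian clock: Rora, Nr1d1, Nr1d2, Nfil3, Dbp, Tef and Hlf. They were chosen by name as the factors that meet at ROR elements and at D-boxes, and all 7 had a row among the 17024 genes of the table. The list was drawn up with the values of both libraries known, so their differences between the libraries are a description and carry no test. RNA was sequenced from sorted GFP-positive cells of small intestine, taken from mice of strain C57BL/6 at an age of 6 to 8 weeks. Th17 cells were T cells from IL17A_IRES_GFP knock-in mice, in which the reporter marks cells transcribing Il17a. Group 3 innate lymphoid cells (ILC3s), which make the same type 3 cytokines without an antigen receptor, came from IL23R_GFP knock-in mice. The reporter, the mouse line and the cell type therefore differ together and cannot be told apart. Each group held 1 library, and neither the number of mice behind it nor the hour of tissue collection is given by the labels.

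Retinoid-related orphan receptors (RORs) and the REV-ERB receptors bind the same DNA element. RORs activate from it, and REV-ERBs, which lack the activation helix, repress. The clock factor BMAL1 and its partner CLOCK drive the REV-ERB genes and Dbp from E-boxes, so these transcripts cycle in many tissues. The D-box is a second clock element, bound by the activators DBP, TEF and HLF, which form the proline and acidic amino acid-rich (PAR) bZIP family, and by the repressor NFIL3. In the mouse immune system, RORα contributes to Th17 cells and to innate lymphoid cells, and NFIL3 is needed for innate lymphoid development. NFIL3 has also been described in mouse T cells as a target of REV-ERBα.

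Promoter sequence is given first for the REV-ERB pair and the PAR bZIP trio, because relatives within each of these families differed in level between the libraries. Each run is the 250 bases before the annotated RefSeq start, on the strand of the gene and in build GRCm38.p6. They lie at chr11:98775378-98775627 (minus strand) for Nr1d1, chr14:18239107-18239356 (minus) for Nr1d2, chr7:45704997-45705246 (plus) for Dbp, chr15:81802423-81802672 (plus) for the first of the 2 Tef starts, and chr11:90390918-90391167 (minus) for Hlf. Capitals mark matches to any of the 7 motifs searched.
Nr1d1: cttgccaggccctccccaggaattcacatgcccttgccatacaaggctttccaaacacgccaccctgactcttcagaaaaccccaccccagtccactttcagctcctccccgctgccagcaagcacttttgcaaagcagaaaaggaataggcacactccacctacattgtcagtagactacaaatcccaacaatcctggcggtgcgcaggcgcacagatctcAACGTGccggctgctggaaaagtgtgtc
Nr1d2: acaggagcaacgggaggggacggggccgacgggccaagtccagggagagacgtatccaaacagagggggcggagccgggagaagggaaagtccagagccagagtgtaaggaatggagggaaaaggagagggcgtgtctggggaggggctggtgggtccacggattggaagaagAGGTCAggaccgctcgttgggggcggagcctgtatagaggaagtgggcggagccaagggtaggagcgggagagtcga
Dbp: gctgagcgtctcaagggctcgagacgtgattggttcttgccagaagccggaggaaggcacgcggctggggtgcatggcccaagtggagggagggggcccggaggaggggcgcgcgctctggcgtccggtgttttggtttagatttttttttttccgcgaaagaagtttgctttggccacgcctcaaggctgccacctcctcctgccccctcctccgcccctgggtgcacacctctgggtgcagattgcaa
Tef: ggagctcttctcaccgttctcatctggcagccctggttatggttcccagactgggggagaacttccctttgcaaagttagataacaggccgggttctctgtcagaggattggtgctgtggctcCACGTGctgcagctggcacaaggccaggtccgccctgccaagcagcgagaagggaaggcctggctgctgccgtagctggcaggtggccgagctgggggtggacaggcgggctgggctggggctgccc
Hlf: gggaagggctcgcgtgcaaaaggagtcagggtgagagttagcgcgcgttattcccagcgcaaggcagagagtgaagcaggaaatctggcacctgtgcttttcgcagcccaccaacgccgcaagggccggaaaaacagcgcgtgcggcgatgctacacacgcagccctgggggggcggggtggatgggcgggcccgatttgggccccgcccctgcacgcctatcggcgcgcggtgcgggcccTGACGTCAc
Both strands were searched for the E-box CACGTG, the E-box-like CACGTT, the D-boxes TTATGTAA and TTACGTAA, the ROR core sites AGGTCA and GGGTCA, and the cyclic AMP response element TGACGTCA. No match overlapped another. In Nr1d1 the E-box-like motif lay on the opposite strand, its match beginning 28 bases before the start, and 3.85% of all 32851 promoter windows held that motif. Hlf held the cyclic AMP response element, beginning 9 bases before the start, against 1.55% of windows. Nr1d2 held AGGTCA beginning 77 bases before the start, and Nfil3 held it on the opposite strand beginning 12 bases before the start, against 14.0% of windows. Tef held an E-box in both of its windows, 127 and 138 bases before the respective starts, against 6.02%. The windows of Dbp and Rora held none of the 7 motifs. GGGTCA, which 11.6% of windows held, and the D-boxes, at 0.819% for TTATGTAA and 0.113% for TTACGTAA, had no match in any of the 8 windows of the 7 genes. These are matches of letters, and the libraries carry no measurement of binding.

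The libraries held 17555055 reads over the listed genes for Th17 and 22509405 for ILC3. Values are the authors' normalized counts, reads divided by 1 size factor per library. A difference was called large at 4-fold or more on log2(normalized count + 1), provided that the higher library reached 100. Of 10431 genes that reached 100, this held for 668 on the Th17 side and 875 on the ILC3 side, and the split became 436 to 1105 when the libraries were centred on 146 constitutive genes. Folds are ratios of the normalized counts, followed by an exact 95% interval for counting error only, which compares these libraries and not the cell types. All 5 T cell and Th17 markers were higher in Th17 with a large difference, among them Cd3e at 9897 against 651. All 5 ILC3 markers were higher in ILC3, and 2 had a large difference, Kit and Ncr1. Ncr1, the defining gene of NKp46-positive ILC3s, had 1 read in Th17. Il23r (1.78-fold) and Id2 (1.28-fold) stood below 2-fold. Of all 13719 genes with a mean of at least 10 normalized counts, 49.3% were higher in ILC3, or 67.7% with that centring. The sorts used reporters of Il17a and Il23r, so these 2 markers were selected for. Each library is bulk RNA, in which fewer cells of a type and less RNA per cell cannot be told apart.

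The 7 factors fell into 3 patterns. Nr1d1 and Dbp were much higher in ILC3, Hlf was much higher in Th17, and Rora, Nr1d2, Nfil3 and Tef stood within 1.44-fold. A large difference was thus found for 3 of the 7, 2 higher in ILC3 and 1 higher in Th17. Over all genes that reached 100 normalized counts, 14.8% had a large difference, 8.39% higher in ILC3 and 6.4% higher in Th17, and since the 7 were chosen with their values known nothing is read from the comparison of these shares. Lowering the threshold to 2-fold added no factor to the 3, whereas it took in 32.3% of all genes, 16.2% on the Th17 side and 16% on the ILC3 side. Counting error alone excluded equal levels for all 7, but it did so for 85.8% of all genes, so that interval separates little at this depth. In the authors' deposited table, whose p-values have no replicate behind them, the adjusted p was 0.0127 for Nr1d1, 0.163 for Hlf, 0.480 for Dbp and 1 for each of the other 4, and 1.8% of all genes had an adjusted p under 0.05.

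**Figure D1:**
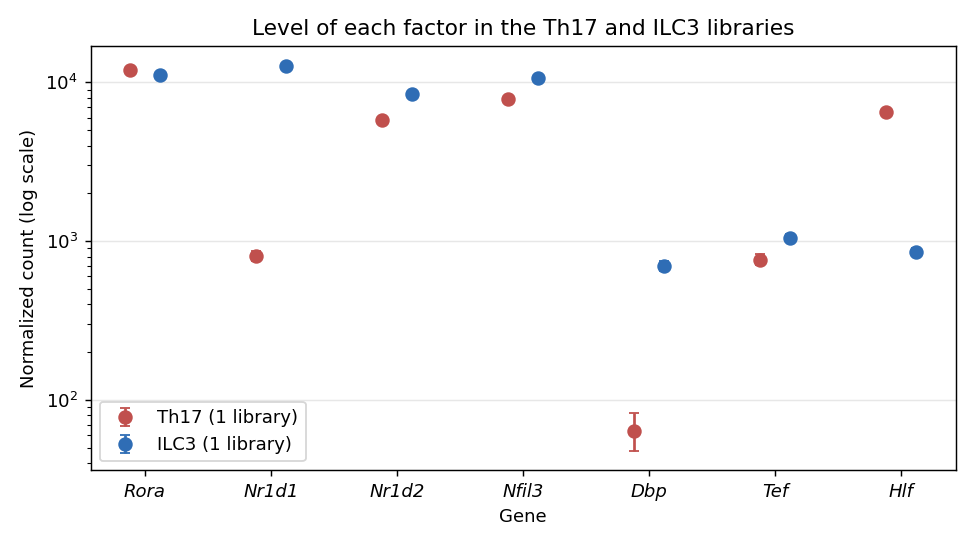
Normalized count of each factor (log axis) in the Th17 library (red) and the ILC3 library (blue), with exact 95% Poisson intervals for counting error that are mostly smaller than the points. Nr1d1 and Dbp are higher in ILC3 (12621 against 805 and 698 against 63.5), Hlf is higher in Th17 (6547 against 853), and the other 4 lie close together.

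Rora, which encodes RORα, was at 11893 (Th17) and 11113 (ILC3) normalized counts. The levels were nearly equal, 1.07-fold higher in Th17 (1.04 to 1.098), and the direction turned when the libraries were scaled to their totals (log2 -0.011) or centred on the constitutive genes (-0.35). Rorb, the ROR of retina and brain, had 9 reads in Th17 and 12 in ILC3.

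The REV-ERB genes parted company. Nr1d1, encoding REV-ERBα, was at 805 (Th17) and 12621 (ILC3) normalized counts, a 15.7-fold difference (14.5 to 16.9) and the largest of the 7. Nr1d2, encoding REV-ERBβ, was at 5836 (Th17) and 8414 (ILC3), 1.44-fold higher in ILC3 (1.39 to 1.49). The ratio of Nr1d1 to Nr1d2 reads, which no scaling between libraries can alter, was 10.9-fold higher in ILC3 (9.99 to 11.8). To compare levels between genes, normalized counts were divided by the length of the union of annotated exons. Per length, Nr1d1 supplied 19.5% of the REV-ERB level in Th17 (18.3 to 20.8) and 72.5% in ILC3 (72.0 to 73.0), intervals again for counting error only. Nr1d2 was therefore the main REV-ERB transcript in Th17 and Nr1d1 the main one in ILC3. Among genes with a read and an annotated length, Nr1d1 stood at percentile 77.4 of 15284 in Th17 and at percentile 98.8 of 13900 in ILC3 by its level per length.

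Nr1d1 overlaps Thra, the thyroid hormone receptor α gene, on the opposite strand, sharing 263 exonic bases or 8.55% of the Nr1d1 exon union in the GENCODE M21 annotation. No label says whether the counting used strand, and without strand the reads of the shared stretch cannot be told apart. Thra was at 292 (Th17) and 436 (ILC3) normalized counts. Set against the receptor it competes with, the Nr1d1 to Rora read ratio was 16.8-fold higher in ILC3 (15.5 to 18.2), and the Nr1d2 to Rora ratio 1.54-fold higher (1.48 to 1.61).

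**Figure D2:**
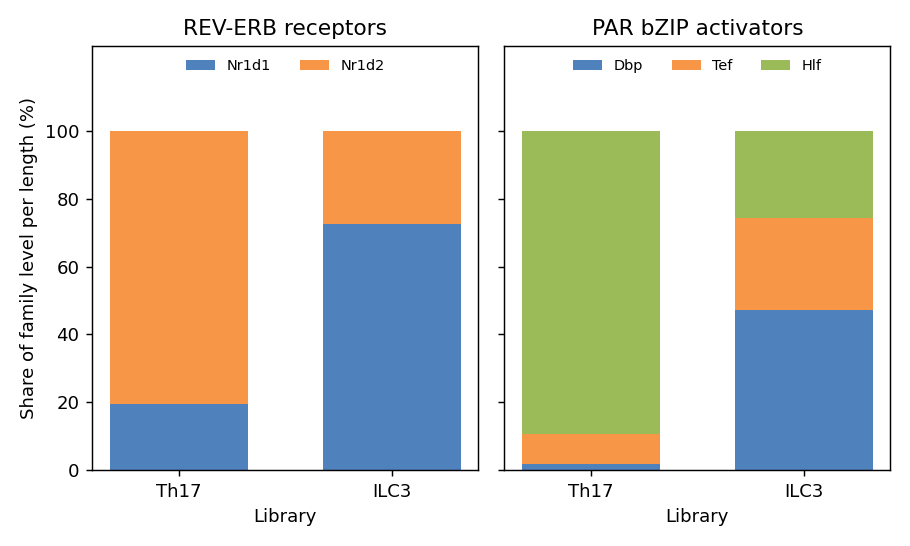
Share of each family's summed level per length (%, y axis) held by each gene in the Th17 and ILC3 libraries, for the REV-ERBs and the PAR bZIP activators. Nr1d1 goes from 19.5% to 72.5% of the REV-ERBs, and Hlf from 89.2% to 25.8% of the PAR bZIP activators, from Th17 to ILC3.

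The PAR bZIP activators went in opposite directions. Dbp, an output factor of the clock, had 63.5 normalized counts in Th17, from 54 reads, and 698 in ILC3, from 821 reads. The difference was 11.0-fold (8.34 to 14.8), and Dbp was the lowest of the 7 in both scales in Th17. Hlf, known also as a factor of blood stem cells and as a fusion partner in leukaemia, was at 6547 (Th17) and 853 (ILC3) normalized counts, 7.68-fold higher in Th17 (7.18 to 8.22). Tef, named for thyrotroph cells of the pituitary, was at 764 (Th17) and 1054 (ILC3), 1.38-fold higher in ILC3 (1.25 to 1.52). By level per length, Hlf stood at percentile 94.0 of genes in Th17 and 60.7 in ILC3, whereas Dbp stood at 38.1 and 74.3.

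The make-up of the PAR bZIP level differed accordingly. Hlf held 89.2% of it in Th17 (88.4 to 90.0), Tef 8.85% and Dbp 1.93% (1.42 to 2.44). In ILC3, Dbp held 47.1% (45.1 to 49.1), Tef 27.1% and Hlf 25.8% (24.3 to 27.3). The summed level per length was 1098 (Th17) and 495 (ILC3) normalized counts per kilobase, 2.22-fold higher in Th17, or 1.78-fold with the length of the longest transcript. Dbp shares 539 exonic bases, 18.0% of its exon union, with Sphk2 on the opposite strand, so reads there cannot be assigned without strand. Sphk2, a sphingosine kinase gene, was at 694 (Th17) and 821 (ILC3) normalized counts.

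Nfil3, the repressor at D-boxes, was at 7824 (Th17) and 10709 (ILC3) normalized counts, 1.37-fold higher in ILC3 (1.33 to 1.41). Per length it was the highest of the 7 in both libraries, at 3862 normalized counts per kilobase in Th17 and 5286 in ILC3, which placed it at percentile 98.6 and 99.1 of genes. The ratio of Nfil3 to Dbp reads was 8.03-fold higher in Th17 (6.09 to 10.6), and that of Nfil3 to Tef did not differ beyond counting error, at 1.01-fold (0.912 to 1.11). Against the summed PAR bZIP level, Nfil3 stood at a ratio of 3.52 (Th17) and 10.7 (ILC3), 3.04-fold higher in ILC3, or 2.43-fold with the longest transcript. The repressor was thus the more abundant transcript on this scale in both libraries. Hlf supplied most of the activator level in Th17.

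Ordered by level per length, the Th17 library ran from Nfil3 through Nr1d2 (1079 normalized counts per kilobase), Hlf (980.0), Rora (909.9), Nr1d1 (262) and Tef (97.2) to Dbp (21.2). The ILC3 library ran from Nfil3 through Nr1d1 (4102), Nr1d2 (1556), Rora (850.2), Dbp (233) and Tef (134) to Hlf (128). Counting intervals of neighbours overlapped only for Tef and Hlf in ILC3, and the order was the same in both libraries with the length of the longest transcript. With 1 library per group, the spread between samples is unknown, so neighbours that lie as close as Nr1d2, Hlf and Rora in Th17 have no established order.

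**Figure D3:**
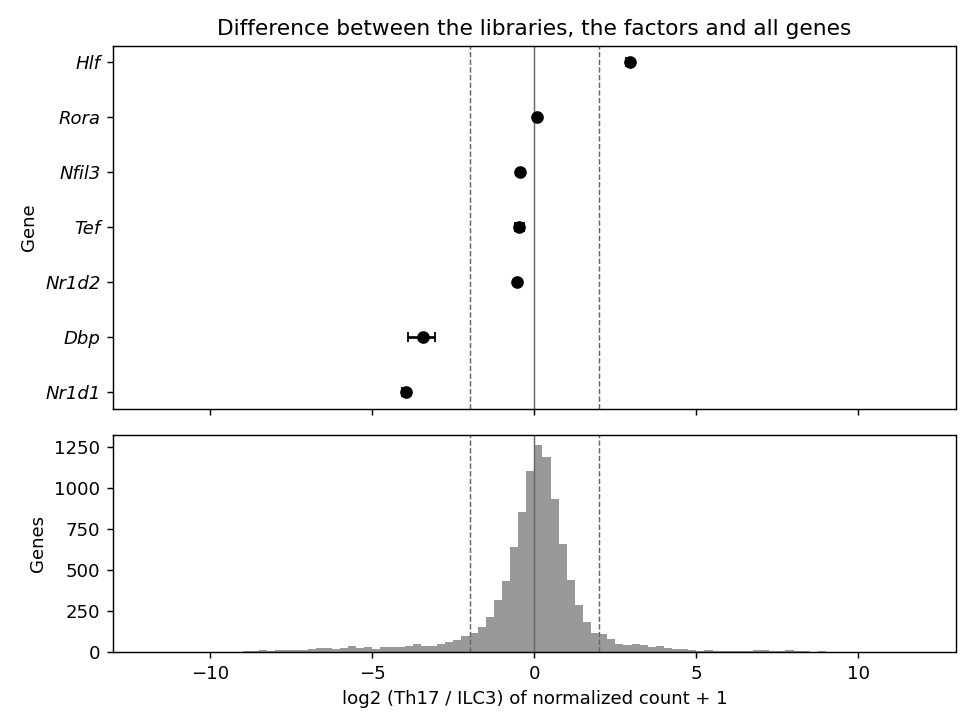
Upper panel, log2 of the Th17 over ILC3 level (normalized count + 1) of each factor with the 95% counting interval of the ratio without the added 1; lower panel, the same value over the 10431 genes that reached 100 normalized counts. Dashed lines mark 4-fold: Nr1d1 and Dbp lie beyond it on the ILC3 side, Hlf on the Th17 side, and the other 4 lie near 0, where the sign of Rora depends on the scaling.

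Core clock genes around these factors mostly differed by less than 2-fold. Of 15 listed and measured genes, ILC3 had the higher level for 11 and Th17 for 4, against 49.3% of all 13719 measured genes higher in ILC3, a share that became 67.7% when the libraries were centred on the constitutive genes. The 11 include Cry1, a clock repressor, at 1.08-fold (0.986 to 1.18), an interval that spans equal levels. The median log2(Th17/ILC3) was -0.57 against 0.02 over all measured genes, and centring moved it to -1.01 against -0.43. Of the 14 that reached 100 normalized counts, 3 stood past 2-fold, all higher in ILC3, where 16% of all genes did. Npas2, a paralogue of Clock, was the 1 with a large difference, where 8.39% of all genes had one higher in ILC3, at 91.7 (Th17) and 842 (ILC3) normalized counts (9.18-fold, 7.28 to 11.7). Bhlhe40, a repressor at E-boxes, had 50046 and 94873 (1.896-fold higher in ILC3). Per1, a clock repressor that cell stimulation also induces, had 12180 and 34689 (2.85-fold higher in ILC3).

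Of the 14 ROR and REV-ERB cofactor genes, 13 reached 100 normalized counts and 0 of these stood past 2-fold in either direction, where 32.3% of all genes did. Their median was -0.04, and -0.49 with centring on the constitutive genes, which placed all genes at -0.43. Ncor1, the corepressor that REV-ERBs recruit with histone deacetylase 3, was at 19176 (Th17) and 22690 (ILC3) normalized counts, and Nrip1, another corepressor of nuclear receptors, had 16417 and 20136.

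Genes described in the literature as carrying ROR elements numbered 8, all of which reached 100 normalized counts. Large differences were found for 2 on the Th17 side and 2 on the ILC3 side, where 6.4% and 8.39% of all genes had one, and the median was -0.39 (-0.84 with centring). Il17a and Il17f were the 2 higher in Th17, at 33614 against 953 and 23257 against 1774 normalized counts, and the Th17 sort itself selected for Il17a. Nr1d1, itself 1 of the 7 factors and listed with its value known, and Npas2 were the 2 higher in ILC3. With so few genes, and members chosen or sorted for, nothing is read from these counts. Arntl, which encodes BMAL1 and is the standard target of REV-ERB repression, was at 1843 (Th17) and 2306 (ILC3) (1.25-fold, 1.18 to 1.33).

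Of 10 measured D-box genes, 5 were higher in each library on the deposited scaling, where 49.3% of all measured genes were higher in ILC3 (67.7% with centring). On the Th17 side, the direction of Rora depended on the scaling. The intervals of Rorb (0.386 to 2.68) and Alas1 (0.980 to 1.30) spanned equal levels, so the split is not settled. Nr1d1 was the 1 large difference among the 9 that reached 100, where 14.8% of all genes had one. The median was -0.23, and became -0.51 at a minimum mean of 100 and -0.68 with centring. Other bZIP factors related to the PAR family had 2 large differences, both higher in ILC3, among the 9 of 10 measured genes that reached 100. Over all genes 14.8% had a large difference and 8.39% had one higher in ILC3, and 2 of 9 genes are too few to set against these shares. The median was 0.14. These were the C/EBP genes Cebpd, at 44.7 (Th17) and 674 (ILC3) (15.1-fold, 10.9 to 21.5), and Cebpb, at 523 and 2244 (4.29-fold, 3.88 to 4.75). Crem, a cyclic AMP-responsive factor gene, was 3.77-fold higher in Th17 (3.67 to 3.87), short of 4-fold, and Atf4, the factor of the amino acid stress response, was 1.46-fold higher in ILC3. Innate lymphoid development factors, among which Rora and Nfil3 are listed, had 1 large difference among 13 measured genes, Zbtb16 (4.07-fold higher in ILC3, 3.67 to 4.53), and a median of -0.45 (-0.90 with centring). Scaling to totals or centring on the constitutive genes made this count 2, and over all genes 14.8% had a large difference. Ets1, a factor of T and innate lymphoid cells, was 2.15-fold higher in Th17.

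**Figure D4:**
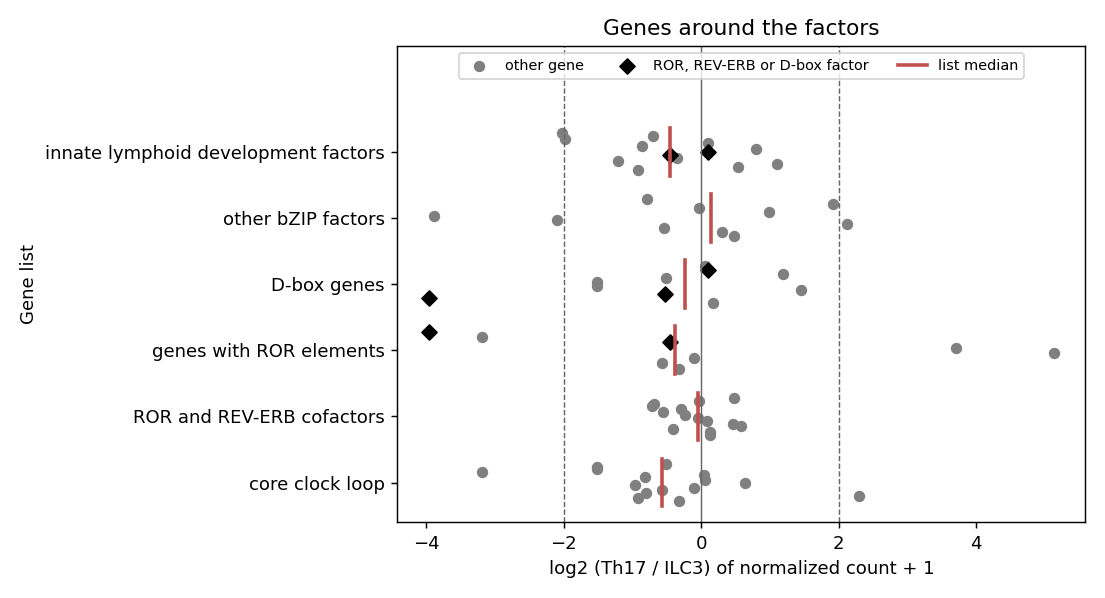
log2 of the Th17 over ILC3 level (normalized count + 1) for each measured gene of 6 lists; black diamonds are the ROR, REV-ERB and D-box factors, grey points are other genes, and red bars are list medians. Medians lie between -0.57 and 0.14, and dashed lines mark 4-fold; the median of the other bZIP factors turned below 0 at a higher minimum level or when centred on the constitutive genes.

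Genes nearest to Nr1d1 and Rora over the 2 libraries were ranked by distance in log2(normalized count + 1). For Nr1d1, with the largest difference, they were Plcg2 (distance 0.09), Igj (0.29) and Maff (0.39), and only 4 genes lay within 0.5. For Rora, with the smallest difference, they were Rap1b (0.08), Actr3 (0.08) and Smg1 (0.09), with 108 genes within 0.5. A pair of libraries places a gene by 2 numbers only, so such neighbours are a description of level.

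Several marker lists were also higher in the ILC3 library, beside Nr1d1 and Dbp. Their counts are on the deposited scaling, where 49.3% of all measured genes were higher in ILC3. The share of 67.7% with centring is not on the same scale as these counts. Immediate early genes, induced by stimulation or tissue handling, were higher there for 17 of 20 members, and their summed level was 212379 normalized counts in Th17 and 897999 in ILC3. All 13 stroma and endothelium markers were higher in ILC3, with summed levels of 2515 and 13228, and Cdh5, Kdr and Vwf were listed at 0 in Th17. B and plasma cell markers, including Igj, were higher in ILC3 for 6 of 6 measured genes (3250 and 13667). Single genes made up most of these sums: Sdc1 had 2354 (Th17) and 2754 (ILC3), and Igj had 822 and 10299. Epithelial markers were higher in ILC3 for 10 of 10 (213 and 1299, with Krt20 listed at 0 in Th17). Macrophage and dendritic cell markers were higher in ILC3 for 7 of 11 (1388 and 1530), and none was at 0. Itgax (5.44-fold) and Lyz2 (4.11-fold) had a large difference and were higher in ILC3, whereas Xcr1 was 2.04-fold higher in Th17. The part of these transcripts, or of the hour of collection, in the values of Nr1d1, Dbp and Hlf was not tested.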

How the data were processed

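RNA of 1 Th17 and 1 ILC3 library was measured, with groups named by the sample titles. Libraries were made from 1 ug of total RNA with an Illumina TruSeq kit, per the labels' protocols. The submitters' processing notes name genome build mm8 and the tools DESeq 1.12.0, HTSeq 0.5.4p3 and TopHat2 2.0.6, without roles or settings. The deposited signal values are the authors' normalized counts. The authors' deposited p-values and adjusted p-values are quoted only as such. Of 17048 rows, 24 whose names had become calendar dates were left out. Dividing by the lowest value above 0 gave whole reads (within 0.001) for 100% of values in each library. No count model was run on them: with 1 library per group it has no residual degrees of freedom.

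The members and lists were chosen with earlier results of these data known. Ratio intervals are Clopper-Pearson, on recovered reads; those of within-library ratios and shares are normal approximations on the same reads. Without molecular identifiers, PCR copies count as reads, so every interval covers counting error only. A list member counted as measured where its mean over both libraries was 10 normalized counts or more. Lengths come from GENCODE M21, another build than the authors', and were found for 15953 genes; promoter windows come from RefSeq (GRCm38.p6) and were found for all 7 members. Named genes are the 7 members and Rorb, per list up to 4 with a large difference and the 2 highest of the rest, and the 3 nearest to the most and the least different member. Markers and overlapping genes were named beside them. Alternatives were other scalings, pseudocounts, minimums and groupings of ILC3 reads; the length of the longest transcript was added after seeing the data. Results on some genes are not reported here. The size rule was tested on simulated data. Software was matplotlib 3.10.9, scipy 1.17.1, pandas 2.3.3, numpy 2.4.6 and Python 3.11.15.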

Additional observations from a re-analysis of the deposited data

How the results depend on the processing

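Nr1d1, Dbp and Hlf, 3 of the 7 factors, stayed past 4-fold and past 2-fold under each of 4 other scalings, pseudocounts of 0.1 and 10, and minimums of 10 and 500 normalized counts. The number of all genes with a large difference was 1543, and became 3372 at a minimum of 10 and 751 at a minimum of 500, by construction of the filter. Centring on constitutive families moved the median of all measured genes from 0.02 to -0.43 on the log2 scale, and total scaling moved it to -0.09. Rora turned to -0.011 under total scaling and to -0.35 under that centring, while Nr1d2, Nfil3 and Tef reached -0.98, -0.90 and -0.91 under it, still short of 2-fold. The median of the other bZIP factors turned to -0.026 at a minimum mean of 100 and -0.31 with centring, and was 0.03 under total scaling and 0.31 with no minimum. Centring also moved the medians of the core clock genes to -1.01, the cofactors to -0.49, the genes with ROR elements to -0.84, the D-box genes to -0.68 and the innate lymphoid factors to -0.90; total scaling moved the cofactors to -0.15, and a minimum mean of 100 moved the D-box genes to -0.51. Innate lymphoid development factors past 4-fold numbered 1, and 2 under total scaling and under centring. ILC3 reads were also grouped by 7, the peak of the smoothed distribution of low read numbers per gene there, with the very lowest numbers left out. This grouping left the interval of each of the 7 factors clear of equal levels. Dbp in Th17 rests on 54 reads, the least of any factor. No paired analysis was possible because each group had 1 library.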
